A study of Mus musculus with 10 samples.

Results

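Wnt proteins are secreted lipid-modified ligands that bind Frizzled receptors together with the co-receptors Lrp5 and Lrp6, and in this way stabilise beta-catenin. In the small intestine this signal keeps crypt stem cells dividing, and Paneth cells at the crypt base are an epithelial source of ligand. R-spondins are secreted proteins that raise the number of Frizzled receptors on the cell surface, whereas secreted inhibitors of the Sfrp, Dkk and Wif families hold the ligands or the co-receptors back. The genes described here are these ligands, receptors and secreted modulators, chosen by gene symbol alone: every Wnt, Frizzled, Sfrp, Dkk and R-spondin gene, with Lrp5, Lrp6, Ror1, Ror2, Ryk, Porcn, Wls, Wif1 and Frzb. The rule found 50 genes among the 19505 measured, namely 19 Wnt ligands, 10 Frizzled receptors, 5 co-receptors and other receptors, 2 genes of ligand processing, 4 R-spondins and 10 secreted inhibitors. Each of them had 1 probe set.

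The RNA came from organoids, self-organising cultures of intestinal epithelium, grown from BALB/c mouse small intestine in Matrigel and IntestiCult growth medium, and each sample was hybridised to 1 single-colour array. For 48 h, 5 cultures were given 5 mg/ml pegtarazimod, a peptide joined to polyethylene glycol (PEG), together with 20 ng/ml recombinant murine TNF. The other 5 cultures received the same TNF for 48 h with 2.625 mM PEG as vehicle. All cultures thus carried TNF, cultures without it were not analysed here, and the sources used here do not give the content of Wnt ligand and R-spondin in the medium. The series calls the samples biological replicates without saying whether they came from separate animals, so p-values measure the spread between these samples.

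The deposited values were log2 expression, with array medians over all genes between 5.60 and 5.66. No detection calls were used, so background was set from 1412 olfactory and vomeronasal receptor genes, which belong to sensory neurons. A gene was near background on an array at or below the 95th percentile of these genes, which lay between 4.31 and 4.45, and 65.9% to 68.2% of all genes lay above it. Their 99th percentile (4.98 to 5.25) served as a stricter threshold. All 10 epithelial markers, including Epcam, Cdh1 and Vil1, were above background on every array. Arrays correlated at 0.983 to 0.992 within pegtarazimod, at 0.989 to 0.994 within vehicle and at 0.973 to 0.991 between groups. Replicates 1 and 2 of each group are known from an earlier look at these values to stand apart from replicates 3 to 5, and the labels name no batch, so differences within these 2 subsets are given beside the results. Both come from the same model of 4 groups, which takes its spread from all 10 arrays. Passing within each subset is therefore no separate replication.

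With pegtarazimod, the 3 of these genes that passed the test were all Frizzled receptors. Fzd5 rose 1.72-fold, whereas Fzd2 and Fzd7 were 2.19-fold and 1.98-fold lower. The 40 other genes were the ligands, co-receptors and other receptors, R-spondins, inhibitors and genes of ligand processing. None of them passed the test by limma, where 4.89% of all genes did, so this does not show that they were unchanged. Of these 40, 4 had an unadjusted p below 0.05 by limma (Wls, Wnt10b, Rspo2 and Dkk4). In all, 3 of the 50 genes changed (1 higher, 2 lower) by limma at a Benjamini-Hochberg adjusted p below 0.05, which is 6% of them. Over all 19505 genes 4.89% changed, 2.5% higher and 2.39% lower, so the share for the 50 genes was near the background. The median difference over the 50 genes was -0.06 on the log2 scale, against 0.00285 over all genes. At an unadjusted p below 0.05 there were 9 of the 50 genes, against 19% of all genes.

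**Figure D1:**
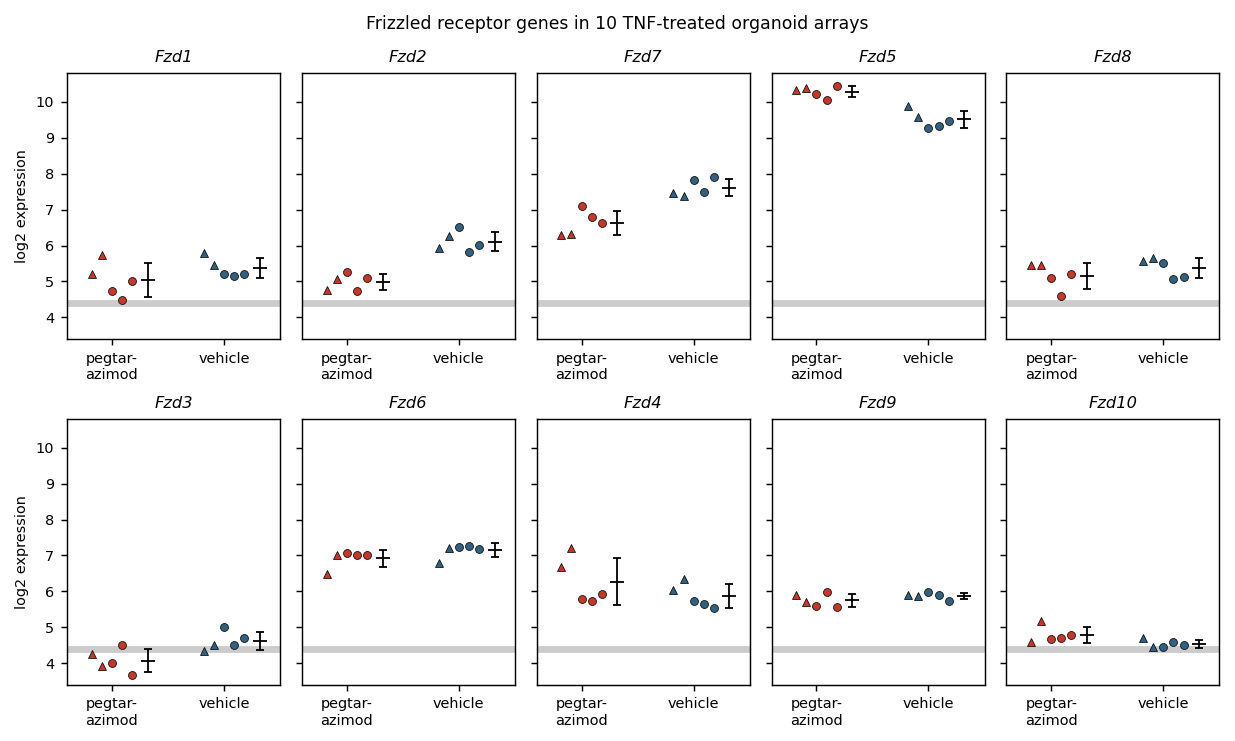
Log2 expression (y axis) of the 10 Frizzled receptor genes on each array, with pegtarazimod on the left and vehicle on the right of each panel. Triangles are replicates 1 and 2, circles replicates 3 to 5, bars the mean and SD of 5 arrays, and the grey band the background threshold of the arrays (4.31 to 4.45). The groups are apart for Fzd2, Fzd7 and Fzd5 and overlap for the others, and heights of different genes are not comparable because each has its own probes.

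Fzd2 and Fzd7 belong to 1 subfamily of closely related receptors, and Fzd7 is known as a Wnt receptor of mouse intestinal stem cells. Fzd7 had log2 values of 6.31, 6.31, 7.11, 6.80 and 6.62 in pegtarazimod cultures 1 to 5, against 7.47, 7.37, 7.84, 7.49 and 7.91 in vehicle cultures 1 to 5. The groups did not overlap, and the lowest pegtarazimod values were those of replicates 1 and 2. The means were 6.63 ± 0.34 with pegtarazimod and 7.62 ± 0.24 with vehicle (SD, n = 5 each), a difference of -0.99 ± 0.16 (SE, 95% interval -1.33 to -0.65, limma adjusted p = 0.00353). It was -1.11 in replicates 1 and 2 and -0.91 in replicates 3 to 5, and passed within each (adjusted p = 0.0026 and 0.0032).

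Fzd2, which binds Wnt5a among other ligands, had log2 values of 4.76, 5.06, 5.27, 4.72 and 5.10 with pegtarazimod, against 5.94, 6.27, 6.51, 5.83 and 6.01 with vehicle. Every pegtarazimod value lay below every vehicle value. The difference was -1.13 ± 0.14 (SE, 95% interval -1.44 to -0.82, limma adjusted p = 8.79e-04), with -1.19 in replicates 1 and 2 and -1.09 in replicates 3 to 5 (adjusted p = 0.00771 and 0.00546). The pegtarazimod values were dim. All were above the background threshold used here, but only 1 of 5 was above the stricter one, against 5 of 5 with vehicle, so the fold may be understated. Fzd1, the third receptor of this subfamily, differed by -0.33 (95% interval -0.76 to 0.10, adjusted p = 0.415) with overlapping groups. It was above the stricter threshold on 2 of 5 pegtarazimod and 5 of 5 vehicle arrays, so its fold may be understated too. Because these 3 genes are close relatives, their probes may take up some signal from each other, which was not tested.

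Fzd5, a receptor known to be needed for the maturation of Paneth cells in the mouse, moved the other way. Its log2 values were 10.32, 10.39, 10.23, 10.06 and 10.45 with pegtarazimod, against 9.88, 9.59, 9.27, 9.34 and 9.47 with vehicle. The groups did not overlap, with pegtarazimod 4 the lowest of its group and vehicle 1 the highest of its own. The means were 10.29 ± 0.15 with pegtarazimod and 9.51 ± 0.24 with vehicle (SD, n = 5 each), a difference of 0.78 ± 0.12 (SE, 95% interval 0.52 to 1.04, adjusted p = 0.00276). It was 0.62 in replicates 1 and 2 and 0.88 in replicates 3 to 5, and passed within each (adjusted p = 0.033 and 0.0017). Fzd8, its closest relative, differed by -0.21 (95% interval -0.58 to 0.15, adjusted p = 0.566). Fzd8 was above the stricter threshold on 2 of 5 pegtarazimod and 5 of 5 vehicle arrays, so its fold may be understated.

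Markers of Paneth cells and of the epithelium as a whole are given beside these receptors. Of 8 listed Paneth cell genes, 5 fell and none rose (Ang4, Pla2g2a, Defa17, Defa24 and Defa26), where near-identical defensin genes can share probes. Over all genes 2.39% fell and 2.5% rose. Lyz1, Mmp7 and Itln1 differed by -0.54, -1.11 and -0.70 and did not pass over all arrays (adjusted p = 0.319, 0.161 and 0.201). Within the subsets, 6 of the 8 genes were lower in replicates 1 and 2 and 7 in replicates 3 to 5. Mmp7 passed in both (-1.01 and -1.18, adjusted p = 0.00708 and 8.82e-04), Itln1 in replicates 1 and 2 (-1.09, adjusted p = 0.00278) and Lyz1 in replicates 3 to 5 (-0.62, adjusted p = 0.0473). The summed linear values of the 8 genes were 1598 to 4080 with pegtarazimod, against 3470 to 7639 with vehicle, and none but Ang4 came near background on any array (above it on 3 of 5 pegtarazimod and 5 of 5 vehicle arrays). Of the 10 epithelial markers, 1 rose, the keratin gene Krt19 (0.33, adjusted p = 0.0350, which did not pass within either subset), and none fell. Krt20, Vil1 and Krt18 differed by 0.72, 0.24 and -0.47 and did not pass over all arrays (adjusted p = 0.151, 0.191 and 0.140), although each passed in replicates 1 and 2 (1.18, 0.46 and -0.53, adjusted p = 0.00423, 0.0494 and 0.0441). The summed linear values of the 10 markers were 15028 to 15652 with pegtarazimod, against 14344 to 15072 with vehicle. The stem cell receptor gene Lgr5 was lower (-0.98, adjusted p = 0.00276). The part of these shifts in the Frizzled differences was not tested, and in RNA of whole organoids fewer cells of a type and less RNA per cell cannot be told apart.

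The reference sequences upstream of the start sites of Fzd7 and Fzd5 are shown because these receptors changed in opposite directions. They are the 250 bases before the annotated start, from RefSeq on the GRCm38.p6 build (strain C57BL/6J, not BALB/c), given 5′ to 3′ on the strand of the gene. That of Fzd7 lies at chr1:59481897-59482146 on the plus strand and that of Fzd5 at chr1:64737751-64738000 on the minus strand. Of the 50 genes, 33 matched a promoter in this table, and Fzd2 was not among them. Capitals mark matches to the motifs searched.
Fzd7: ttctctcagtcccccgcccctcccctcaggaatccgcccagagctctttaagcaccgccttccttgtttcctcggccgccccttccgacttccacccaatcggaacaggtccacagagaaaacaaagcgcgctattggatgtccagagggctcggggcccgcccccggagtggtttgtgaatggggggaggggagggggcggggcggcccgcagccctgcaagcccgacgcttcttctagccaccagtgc
Fzd5: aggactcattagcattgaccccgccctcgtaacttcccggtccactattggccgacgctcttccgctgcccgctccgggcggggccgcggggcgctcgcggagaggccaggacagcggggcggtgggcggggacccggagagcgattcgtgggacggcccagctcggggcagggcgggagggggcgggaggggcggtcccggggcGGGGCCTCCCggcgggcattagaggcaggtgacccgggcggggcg

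Both windows are rich in G and C, with 65.2% in Fzd7 and 76.4% in Fzd5, against a median of 52.4% over all 32851 promoters of the table. Both strands were searched for CTTTGAT and CTTTGAA, forms of the core bound by the Wnt-responsive T-cell factors. The AP-1 motif TGANTCA and the NF-kB motif GGGRNYYYCC were searched too (R is A or G, Y is C or T, N is any base). Other forms of the T-cell factor core, such as CTTTGTT, were not searched. The window of Fzd7 held no match to the motifs searched, but it holds aacaaag, which reads CTTTGTT on the other strand. How many of all promoters hold CTTTGTT was not worked out, so this is a description only. That of Fzd5 held 1 match to the NF-kB motif, on the strand of the gene, 45 to 36 bases before the start, and no other match. Over all promoters of the same length, 3.21% held CTTTGAT, 4.46% CTTTGAA, 6.75% TGANTCA and 5% the NF-kB motif. Shares among promoters as rich in G and C as these windows were not worked out and may be different. A match in a window of this length is a description of the letters and no measurement of binding.

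The other Frizzled genes did not pass the test. Fzd3 had log2 values of 4.26, 3.91, 3.99, 4.51 and 3.66 with pegtarazimod, against 4.33, 4.50, 5.00, 4.52 and 4.71 with vehicle. It was above background on 1 of 5 pegtarazimod and 5 of 5 vehicle arrays, and the groups overlapped. The difference was -0.55 (95% interval -0.88 to -0.21, adjusted p = 0.0664), and it passed in the fit with a term for the 2 subsets (adjusted p = 0.0372), with array weights (0.0473) and without pegtarazimod 4 (0.0215). Fzd6, the nearest relative of Fzd3, differed by -0.22 (adjusted p = 0.390), and Fzd9 and Fzd10 differed by -0.13 and 0.24 (adjusted p = 0.567 and 0.257). Fzd10 was above the stricter threshold on 1 of 10 arrays, so its fold may be understated.

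Fzd4, which is also the receptor of the ligand Norrin, had its highest values in replicates 1 and 2 of both groups. Its log2 values were 6.68 and 7.21 in pegtarazimod cultures 1 and 2 and 5.80, 5.73 and 5.94 in pegtarazimod cultures 3 to 5, against 6.04 and 6.35 in vehicle cultures 1 and 2 and 5.74, 5.66 and 5.55 in vehicle cultures 3 to 5. The groups overlapped, but within each subset the pegtarazimod mean was the higher. Over all 10 arrays it differed by 0.40 (95% interval -0.14 to 0.95, adjusted p = 0.445), and with a term for the 2 subsets the adjusted p was 0.0743. Within replicates 1 and 2 it was higher with pegtarazimod (0.75, adjusted p = 0.0246), and within replicates 3 to 5 it differed by 0.17 (adjusted p = 0.638). The difference between these values was itself not past the threshold (0.57, adjusted p = 0.575).

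**Figure D2:**
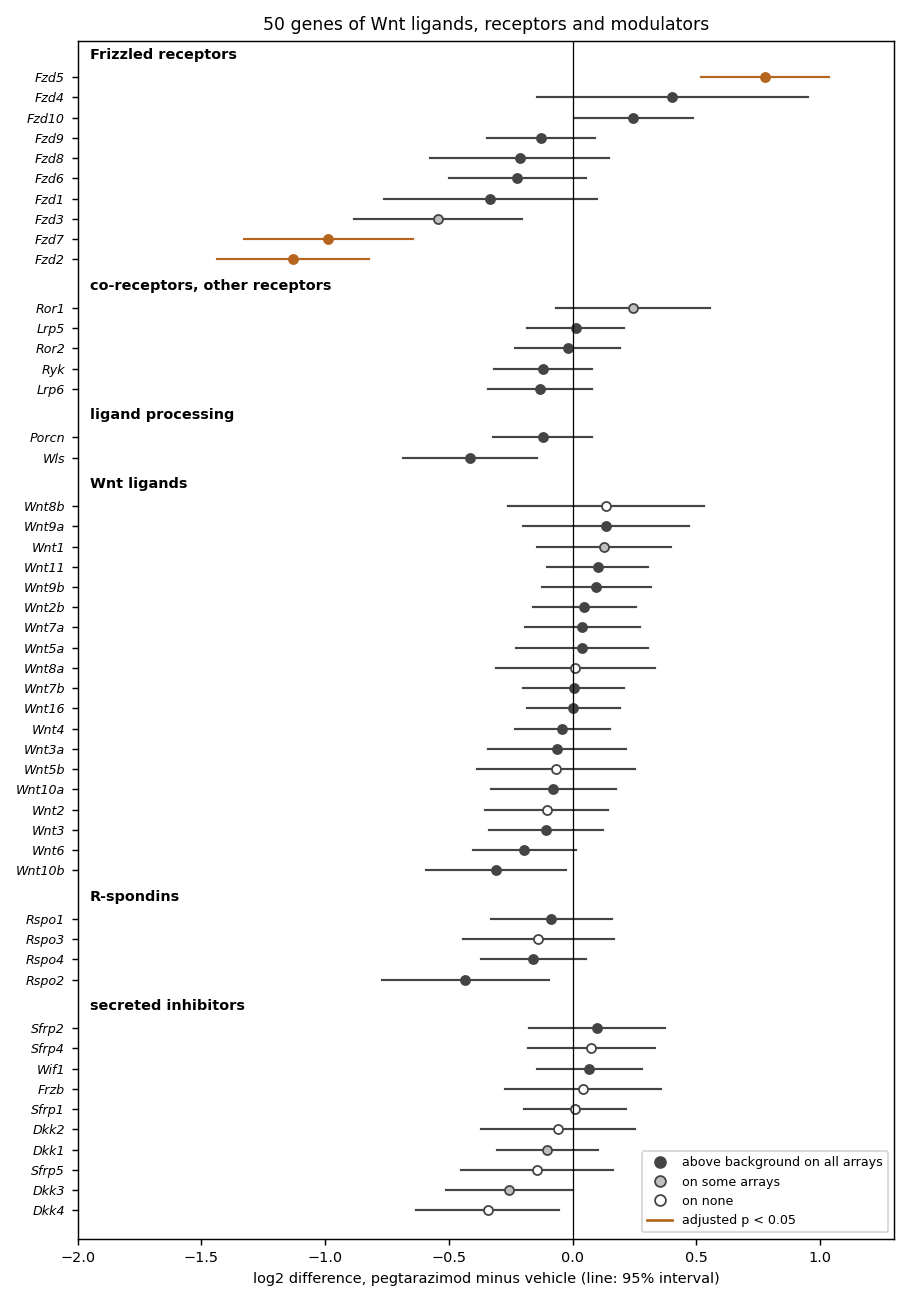
Difference of each of the 50 genes (points, log2 scale, pegtarazimod minus vehicle) with its 95% interval from limma (lines), grouped by role. Filled points were above background on all arrays, grey points on some and open points on none, and the 3 genes in brown (Fzd5, Fzd7, Fzd2) passed an adjusted p of 0.05.

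Of the 50 genes, 34 were above background on all arrays, 11 on none and 5 on some. The 11 near background throughout were the ligands Wnt2, Wnt5b, Wnt8a and Wnt8b, the R-spondin Rspo3 and the inhibitors Sfrp1, Sfrp4, Sfrp5, Frzb, Dkk2 and Dkk4, with values of 2.48 to 4.28. Wnt1 was above background on 4 pegtarazimod and 2 vehicle arrays, Ror1 on 3 and 3, Dkk1 on 1 and 3, and Dkk3 on none and 2.

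A value above this threshold is no proof of expression. Of 11 mesenchymal markers, which an epithelial culture should lack, 5 also lay above it on all arrays (Col1a1, Col1a2, Pdgfrb, Foxl1, Myh11), and 6 on none (Acta2, Col3a1, Dcn, Des, Gli1, Lum). None of the 11 passed the limma test or had an unadjusted p below 0.05, where 4.89% and 19% of all genes did. Their summed linear values were 323 to 350 with pegtarazimod, against 316 to 346 with vehicle. By the stricter threshold, 21 of the 50 genes were above background on all arrays. These were the Frizzled genes Fzd4, Fzd5, Fzd6, Fzd7 and Fzd9, the receptors Lrp5, Lrp6, Ror2 and Ryk, Porcn and Wls, the ligands Wnt4, Wnt5a, Wnt7a, Wnt7b, Wnt9b and Wnt16, and Rspo1, Rspo4, Sfrp2 and Wif1.

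None of the 5 co-receptors and alternative Wnt receptors passed the limma test, where 4.89% of all genes did. Lrp5 and Lrp6, which form the signalling complex with Frizzled, differed by 0.01 (95% interval -0.18 to 0.21) and -0.13 (-0.34 to 0.08). The receptor kinase gene Ror2 and the atypical kinase gene Ryk, both receptors for Wnt5a, differed by -0.02 (-0.23 to 0.19) and -0.12 (-0.32 to 0.08). Ror1, a relative of Ror2, had the largest difference of this role, 0.24 (-0.07 to 0.55), and was above background on 3 of 5 arrays of each group. Lrp6 ranged from 8.21 to 8.70 with pegtarazimod and from 8.58 to 8.73 with vehicle, so the groups overlapped, as they did for all 5 genes of this role. Their limma adjusted p-values were 0.407 or higher, and none had an unadjusted p below 0.05, against 19% of all genes.

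Of the 2 genes of ligand processing, Wls encodes the carrier that takes Wnt proteins to the cell surface and Porcn the enzyme that attaches their lipid. Wls had log2 values of 6.97, 7.35, 7.32, 7.64 and 7.40 with pegtarazimod, against 7.64, 7.54, 7.73, 7.77 and 8.05 with vehicle. The groups overlapped only through pegtarazimod 4, which lay above vehicle 2 and just below vehicle 1. The difference was -0.41 (95% interval -0.69 to -0.14) and did not pass (adjusted p = 0.0813). It was close to equal in the subsets (-0.43 and -0.40), passing in neither (adjusted p = 0.186 and 0.161). It passed with a term for the 2 subsets (adjusted p = 0.0219), on leaving out the dimmest 50% of genes (0.0471) and without pegtarazimod 4 (0.0345). Porcn differed by -0.12 (-0.32 to 0.08, adjusted p = 0.552).

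None of the 19 Wnt ligand genes passed by limma, where 4.89% of all genes did, so this does not show that they were unchanged. At an unadjusted p below 0.05 by limma there was 1 of them, against 19% of all genes. Of the 14 ligands above background on all arrays, 13 had a 95% interval that stayed within a 1.5-fold difference in either direction. Several were dim. Wnt2b, Wnt3a, Wnt6, Wnt9a, Wnt10a and Wnt3 were above the stricter threshold on 0, 2, 3, 4, 6 and 7 of 10 arrays. For such genes folds may be understated, so a narrow interval is a weak bound. The exception was Wnt10b, which differed by -0.31 (-0.59 to -0.03, adjusted p = 0.218) and was also the ligand with the unadjusted p below 0.05. Wnt3, the ligand that Paneth cells supply to stem cells in the mouse, had log2 values of 4.99, 5.08, 5.07, 5.27 and 5.33 with pegtarazimod, against 5.53, 5.02, 5.17, 5.32 and 5.26 with vehicle. Its groups overlapped almost wholly, at a difference of -0.11 (-0.34 to 0.12, adjusted p = 0.671). Of the 8 Paneth cell markers, 5 fell over all arrays, 6 within replicates 1 and 2 and 7 within replicates 3 to 5. Wnt3 was dim, and a link between its values and these markers was not tested.

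Wnt9b had the brightest probe set of the ligands, with 7.12 to 7.45 with pegtarazimod and 7.07 to 7.42 with vehicle. This does not rank it above the others, since the brightness of a probe set depends on its probes. It differed by 0.10 (-0.12 to 0.32). Wnt5a, a ligand best known for signalling without beta-catenin, differed by 0.04 (-0.23 to 0.31), Wnt7b by 0.00355 (-0.20 to 0.21) and Wnt4 by -0.04 (-0.23 to 0.15). The remaining ligands above background on all arrays differed by 0.14 (Wnt9a), 0.10 (Wnt11), 0.05 (Wnt2b), 0.04 (Wnt7a), 0.00253 (Wnt16), -0.06 (Wnt3a), -0.08 (Wnt10a) and -0.19 (Wnt6).

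None of the 4 R-spondin genes passed the test, where 4.89% of all genes did. All 4 had a negative difference, as did 9619 of all 19505 genes. For Rspo1 and Rspo3 the sign was not the same in both subsets. Rspo2 had log2 values of 5.40, 4.80, 4.64, 5.03 and 4.62 with pegtarazimod, against 5.03, 5.66, 5.27, 5.51 and 5.19 with vehicle. Pegtarazimod 1 lay above 3 of the 5 vehicle arrays, whereas the other pegtarazimod arrays reached at most 5.03, level with the lowest vehicle array. The difference was -0.43 (-0.77 to -0.10, adjusted p = 0.140), and it passed without pegtarazimod 1 (adjusted p = 0.0435). Rspo2 was above the stricter threshold on 1 of 5 pegtarazimod and 4 of 5 vehicle arrays, so its fold may be understated. Rspo1 and Rspo4 differed by -0.09 (-0.33 to 0.16) and -0.16 (-0.37 to 0.06), and Rspo3 was near background on all arrays.

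Of the 10 secreted inhibitor genes, only Sfrp2 and Wif1, both of which bind Wnt proteins outside the cell, were above background on all arrays. They differed by 0.10 (-0.18 to 0.37) and 0.07 (-0.14 to 0.28). Dkk4, an inhibitor that acts through Lrp5 and Lrp6, had log2 values of 3.63, 2.89, 3.47, 3.53 and 3.48 with pegtarazimod, against 3.69, 3.68, 3.68, 4.03 and 3.63 with vehicle. The groups did not overlap, although pegtarazimod 1 and vehicle 5 both round to 3.63, and every value was near background. The difference was -0.34 (-0.63 to -0.05, adjusted p = 0.177). With Fzd2, Fzd5 and Fzd7 it made 4 of the 50 genes without overlap between the groups, against 6.71% of all genes. Dkk3 differed by -0.26 (-0.51 to 0.000137, adjusted p = 0.264).

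**Figure D3:**
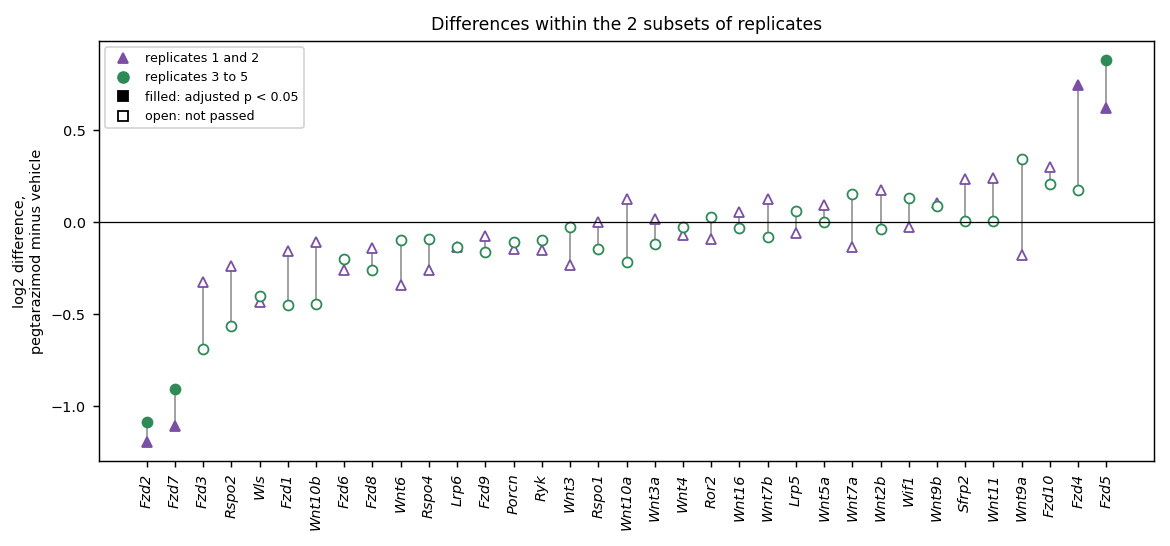
Difference of the 35 genes above background on every array of at least 1 group (y axis, log2 scale, pegtarazimod minus vehicle), within replicates 1 and 2 (triangles) and within replicates 3 to 5 (circles), ordered by the difference over all arrays. Filled symbols passed an adjusted p of 0.05, as Fzd2, Fzd7 and Fzd5 did in both subsets and Fzd4 in replicates 1 and 2.

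Within replicates 1 and 2, 4 of the 50 genes changed (6.3% of all genes did), and within replicates 3 to 5, 3 changed (3.34% of all genes), with Fzd2, Fzd5 and Fzd7 in both. Of the 34 genes above background on all arrays, 23 had the same sign in both subsets. The share over all genes was not worked out, so this count is a description only. By limma, 0 of the 50 genes differed between the subsets in their response at an adjusted p below 0.05, 2 did at an unadjusted p below 0.05, and 0.0256% of all genes passed. These tests rest on 2 and 3 arrays per group, so they bound only large differences between the subsets.

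Other genes of the pathway are given by 4 lists that hold none of the 50 genes. They were written with earlier results of these data known, and 8 genes stand on more than 1 list. Of 16 measured genes of surface feedback, 3 fell and none rose, at a list median of -0.000924. Over all genes 2.39% fell and 2.5% rose. Znrf3, a membrane ubiquitin ligase that removes Frizzled receptors from the surface, had log2 values of 7.88, 8.01, 8.25, 8.31 and 8.23 with pegtarazimod, against 8.65, 8.63, 8.85, 8.83 and 8.75 with vehicle. Its groups did not overlap, and it was 1.52-fold lower (-0.60 ± 0.10, SE, adjusted p = 0.00429). Apcdd1, a membrane inhibitor of Wnt signalling, was 1.84-fold lower (adjusted p = 0.00529), and Lgr5 was the third. Lgr4, the R-spondin receptor found throughout the crypt, differed by 0.04 (95% interval -0.15 to 0.23, adjusted p = 0.853).

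Of 13 measured Wnt target genes, 8 fell and none rose, at a list median of -0.73, where 2.39% of all genes fell. Ascl2, Axin2, Sox9, Lgr5 and Sp5 had the smallest p-values among them, with differences of -1.80, -1.81, -1.05, -0.98 and -0.54. Of 28 measured genes of signal transduction inside the cell, 1 fell, Axin2, which is also a target, at a list median of -0.07. That is 3.57% of them, near the 4.89% of all genes that changed in either direction. The other 27 did not pass. The nearest to the threshold was the co-repressor gene Tle3, whose groups did not overlap, at a difference of -0.40 and an adjusted p just above the threshold (0.05005). The count on this list was 2 to 4 under 9 of 21 alternatives and 1 under the others. The kinase gene Gsk3b, the scaffold gene Apc and the transcription factor gene Tcf7l2 differed by -0.33, -0.01 and 0.13 (adjusted p = 0.0955, 0.976 and 0.686). Ctnnb1, Dvl2 and Tcf7 had no probe set with a symbol here and were not analysed. The same holds for Rnf43, Ccnd1 and Ephb2 of the surface feedback and target lists.

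Of 17 genes of planar polarity and signalling without beta-catenin, 3 fell and none rose, at a list median of -0.10, where 2.39% of all genes fell. Ptk7, a receptor-like protein of planar polarity that also takes part in Wnt signalling, had log2 values of 4.32, 4.58, 5.03, 4.45 and 4.58 with pegtarazimod, against 5.13, 5.71, 5.82, 5.82 and 5.87 with vehicle. The groups did not overlap, and it was 2.11-fold lower (-1.08 ± 0.16, SE, limma adjusted p = 0.00192). Ptk7 was above background on 4 of 5 pegtarazimod and 5 of 5 vehicle arrays, so its fold may be understated. Vangl2, a core membrane protein of planar polarity, was 1.64-fold lower (adjusted p = 0.00197) and the transcription factor gene Nfatc1 1.35-fold lower (adjusted p = 0.0308). Nfatc1 did not pass in 6 of the 10 fits that each lacked 1 array, among them that without vehicle 3 (adjusted p = 0.0932).

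**Figure D4:**
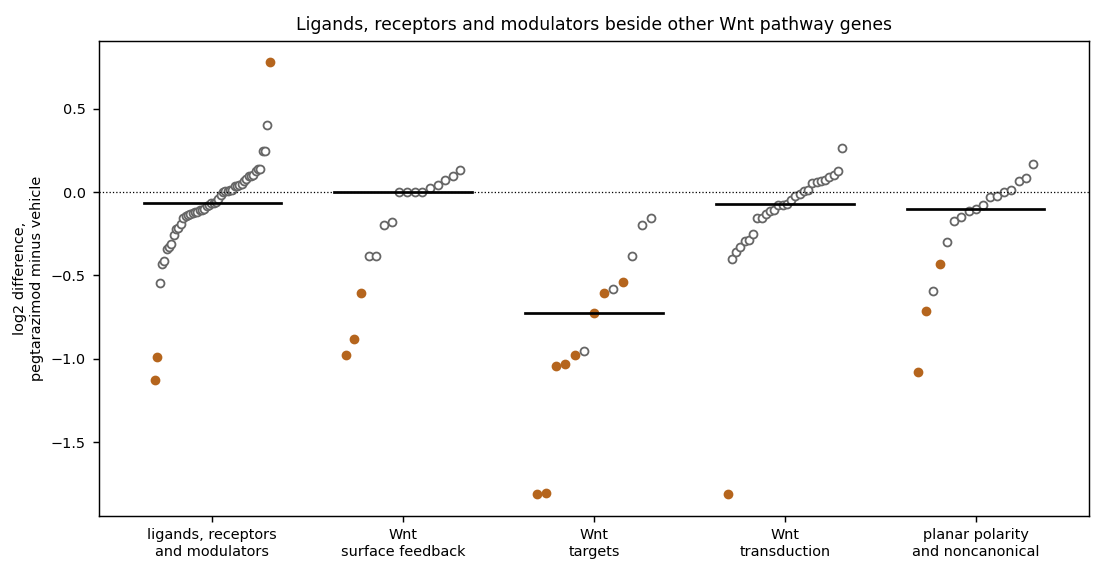
Difference of each gene (points, log2 scale, pegtarazimod minus vehicle) for the 50 ligands, receptors and modulators and for 4 lists of other Wnt pathway genes, sorted within each list. Brown points passed an adjusted p of 0.05, horizontal bars are list medians, and the dotted line is the median over all genes, showing the target list at -0.73 and the other lists between -0.10 and -0.000924.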

How the data were processed

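Total RNA was column-purified, amplified to cDNA and labelled with biotin by a whole-transcript kit, per the labels' protocols. The authors deposited log2 expression per probe set, made with oligo and RMA per the submitters' processing notes, which corrects background, normalises quantiles between arrays and summarises probes, so a shift shared by most genes cannot be seen. The sources used here give no versions or build, and the number of arrays limits the precision.

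Of 22203 probe sets, 19572 had 1 gene symbol and 2631 were unnamed here and left out. Of 19505 genes, 55 had several probe sets and took the one with the highest mean. All 50 described genes matched the GRCm38.p6 gene table by gene identifier. Groups came from sample titles. Differences (pegtarazimod minus vehicle) were fitted by limma 3.58.1 in R 4.3.3 (lmFit, eBayes, no covariates) and adjusted by Benjamini-Hochberg over 19505 genes, at 0.05. The subsets of replicates were fitted in a model of 4 groups. No pair of arrays shared identical values in more than 2 genes. The fits were tested on simulated data. Figures used Python 3.11.15 and matplotlib 3.10.9.

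The genes, lists and tests were chosen with earlier results of these data known. Named were the changed genes, those above background in a group, others without overlap or with an unadjusted p below 0.05, and of each list up to 5 changed genes with the smallest p. Lgr4, Gsk3b, Apc, Tcf7l2 and Tle3 were named besides, after their values were seen. Alternatives were 2 scalings, 2 filters on dim genes, a trend with robust priors, array weights, blocks, subsets, means over probe sets, leaving out each array and other background thresholds.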

Additional observations from a re-analysis of the deposited data

Results flagged for a closer look

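Among 100 sets of 5 arrays (50 genes in each group), 5 held 1 array far from the other 4 by Dixon's criterion, and chance alone gives about 1 in 20. Fzd6 was low on the first array of both groups. It had 6.48 in pegtarazimod 1, against 7.01 to 7.07 in the other pegtarazimod arrays, and 6.79 in vehicle 1, against 7.19 to 7.25 in the other vehicle arrays. Its difference was -0.11 without pegtarazimod 1 and -0.31 without vehicle 1, and passed in neither fit. Dkk4 had 2.89 in pegtarazimod 2, against 3.47 to 3.63 in the others of that group, and 4.03 in vehicle 4, against 3.63 to 3.69 in the others of that group. Wnt2 had 3.24 in pegtarazimod 3, against 3.75 to 3.82 in the other pegtarazimod arrays. Dkk4 and Wnt2 were near background on all arrays.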

How the results depend on the processing

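Fzd2, Fzd5 and Fzd7 kept their direction and their call under every alternative run. They ranged from -1.20 to -1.03 (adjusted p up to 0.00771), from 0.62 to 0.88 (up to 0.033) and from -1.11 to -0.91 (up to 0.0142) in that order, with Fzd2 left out by the filter on the dimmest 50% of genes. The count of changed genes among the 50 was 3 to 5. It was 5 with a term for replicates 1 and 2 against 3 to 5, where Fzd3 and Wls passed too, and 3 to 5 on leaving out each array, with 5 without pegtarazimod 4. Same-numbered arrays deviated together at correlations of 0.0993 to 0.310, and 4 of 5 pegtarazimod arrays correlated best with their own number, a hint from the data and not the design. With the replicate number as a block 4 of the 50 genes changed, Wls among them (adjusted p = 0.0354), and 1606 genes in all, against 954 without it. Over all genes the count was 1820 with the term for the subsets, and 437 to 1245 on leaving out each array (437 without vehicle 3, 498 without vehicle 4, 522 without pegtarazimod 2, 552 without pegtarazimod 1, 562 without vehicle 5). On the 4 lists together, 12 genes changed, and 10 to 18 under the alternatives. On the transduction list it was 1, and up to 4. The count above background on all arrays was 34, and 21 at the 99th percentile. No gene past the threshold changed sign. Of 1005 differences of the 50 genes under an alternative, 60 had the opposite sign, all of genes that passed in neither fit, and the cause was not tested. Within replicates 1 and 2 these were Dkk2 0.18, Lrp5 -0.059, Rspo1 0.0016, Sfrp4 -0.036, Sfrp5 0.26, Wif1 -0.027, Wnt10a 0.13, Wnt2 0.058, Wnt3a 0.017, Wnt7a -0.14, Wnt8b -0.081 and Wnt9a -0.18. Within replicates 3 to 5 these were Frzb -0.016, Ror2 0.030, Rspo3 0.028, Sfrp1 -0.019, Wnt16 -0.032, Wnt2b -0.037, Wnt7b -0.080 and Wnt8a -0.037. With array weights these were Wnt7b -0.010 and Wnt8a -0.042, with median centring Ror2 0.0086 and with quantile normalisation Sfrp1 -0.011. On leaving out each array, Dkk2 ran from -0.15 to 0.029, Frzb from -0.079 to 0.15, Lrp5 from -0.016 to 0.056, Ror2 from -0.051 to 0.046, Sfrp1 from -0.036 to 0.055, Sfrp2 from -0.029 to 0.17, Sfrp4 from -0.0035 to 0.15, Wnt16 from -0.032 to 0.038, Wnt2 from -0.14 to 0.0028, Wnt2b from -0.0072 to 0.10, Wnt3a from -0.12 to 0.022, Wnt4 from -0.077 to 0.0030, Wnt5a from -0.066 to 0.096, Wnt5b from -0.18 to 0.0076, Wnt7a from -0.045 to 0.079, Wnt7b from -0.046 to 0.041 and Wnt8a from -0.085 to 0.096. Dim signal limits Fzd2 and Ptk7 under pegtarazimod, Fzd1, Fzd3, Fzd8, Fzd10, Rspo2 and the ligands not above the stricter threshold on all arrays. It also limits the genes near background on some or all arrays. The folds of all these may be understated.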
